A study of Mus musculus with 20 samples.

Results

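The receptors described here are 10 members of the secretin family, the class of G protein-coupled receptors that bind peptide hormones: Adcyap1r1, Vipr1, Vipr2, Sctr, Pth1r, Crhr2, Calcrl, Gipr, Gcgr and Glp1r. They were taken by gene name from a microarray of mouse visceral adipose tissue (VAT), which carries 17 probes for them out of 56605 probes in all, and out of 37074 gene names. Of these probes 16 passed the filter on dim signals, at least 1 for each of the 10 genes, and 13 probes of 9 genes were well above background on all 20 arrays. In VAT of mice of the control lineage given the high-fat diet, 6 of the 10 receptors had a probe that differed from the low-fat reference. Of these, 4 were lower (Adcyap1r1, Sctr, Pth1r and Crhr2) and 2 higher (Vipr2 and Calcrl). Over all 25618 genes tested, 31.8% differed in this comparison, 16.7% lower and 15.2% higher. The difference in Crhr2 holds for 1 of 2 probes: the one on its RefSeq transcript was at 0.01 on the log2 scale (limma's adjusted p = 0.963). That in Vipr2 holds for probe A_51_P342773. The dim Vipr2 probes A_55_P2033676 and A_66_P111305 had 0.19 and 0.10 (limma's adjusted p = 0.205 and 0.75).

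These receptors share a large extracellular domain that grasps the hormone and a membrane domain that couples mostly to the stimulatory G protein. Adenylyl cyclase then makes cyclic AMP, which acts through protein kinase A and Epac, and phosphodiesterases remove it again. In fat cells cyclic AMP is the main signal for lipolysis, and the catecholamine receptors of fat use the same route.

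The probes are 60 bases long, and each reads a short stretch of the transcript. The 4 shown hold at least 1 reading frame without a stop codon, and only these 4, a chosen set, were examined for this. Those of Vipr2 are its dim probes, and its called probe is not shown. That of Pth1r reads a called receptor, as do other probes not shown. That of Glp1r had a signal close to the background. Their positions are on build mm9, as in the files. The probe of Glp1r spans an intron, so its 60 bases cover 3670 bases of the genome.
Pth1r A_51_P327874 (chr9:110624846-110624905, minus strand): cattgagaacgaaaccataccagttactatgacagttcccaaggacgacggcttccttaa
Vipr2 A_55_P2033676 (chr12:117333207-117333266, plus strand): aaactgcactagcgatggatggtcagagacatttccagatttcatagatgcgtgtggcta
Vipr2 A_66_P111305 (chr12:117377624-117377683, plus strand): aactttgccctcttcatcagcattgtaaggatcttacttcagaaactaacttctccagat
Glp1r A_51_P275077 (chr17:31069561-31073230, plus strand): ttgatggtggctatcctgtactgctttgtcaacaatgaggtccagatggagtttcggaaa

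The tissue came from 20 male C57bl/6J mice of the third generation of 2 lineages, with 1 array per mouse. The control lineage had received 1% of high-oleic sunflower oil in the breeding diet and the omega 3 lineage 1% of fish oil rich in EPA. Ref mice (n = 6) were of the control lineage and ate a low-fat diet with 10% of energy from fat, HFoleic mice (n = 6) were of the control lineage and HFepa mice (n = 8) of the omega 3 lineage, and the last 2 groups ate a high-fat, high-sucrose diet with 45% of energy from fat, for 17 weeks in every group. No group of the omega 3 lineage on the low-fat diet is in the design, so an effect of lineage alone cannot be told apart from its effect under the high-fat diet. All 7 adipocyte markers examined, among them Adipoq and Plin1, were well above background on all 20 arrays. In such bulk tissue, fewer cells of a type and less RNA per cell cannot be told apart.

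The share of spots well above background ran from 66.1% to 71.9% over the arrays, and saturation was not marked for any spot. The epididymal fat lies against the epididymis and testis, and 5 arrays carried signal of their genes, set as Prm1 or Adam7 above a log2 intensity of 8. The protamine gene Prm1 was at 9.65 in Ref mouse 3, 10.02 in Ref mouse 6, 10.88 in HFoleic mouse 5 and 9.67 in HFepa mouse 4, in log2 intensity, and Adam7, a gene of the epididymis, was at 8.62 in HFepa mouse 2. Results are therefore also given without these 5 arrays. Lesser signal can remain on the others: Prm2, a second protamine gene, was at 7.32 in Ref mouse 2 and 7.17 in HFepa mouse 6. It was at 6.52 or less on the remaining arrays kept. Of the 8 tested macrophage markers 7 were called in HFoleic vs. Ref, 6 higher and Cd163 lower, and their levels moved with the groups: their mean lay between 11.01 and 11.63 in Ref mice, between 12.53 and 13.74 in HFoleic mice and between 11.43 and 13.89 in HFepa mice. Within the HFepa group, mouse 1 was at 13.89 and mouse 6 at 13.51, while the remaining mice did not exceed 12.28.

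Values below are log2 intensities after quantile normalization, and a gene is represented by its tested probe with the highest mean. A probe was called when the adjusted p of limma's moderated test, over all 39390 tested probes, was below 0.05. Levels of different probes are not compared, because probes differ in how strongly they bind.

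In HFoleic vs. Ref, 6 of the 10 receptors were called, beside 31.8% of the 25618 genes tested. The 4 lower ones stand beside 16.7% of genes called lower and the 2 higher ones beside 15.2% called higher. For 4 of the 10 receptors the groups did not overlap, beside 14.0% of all genes. The median log2 fold change over the 10 receptors was -0.18, and over all tested genes -0.04. All 6 calls held without the 5 arrays with testis or epididymis signal, and in each of the 20 fits that left out a single array. At an unadjusted p below 0.05, 7 receptors passed, the seventh being Gcgr, beside 42.2% of all genes.

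**Figure D1:**
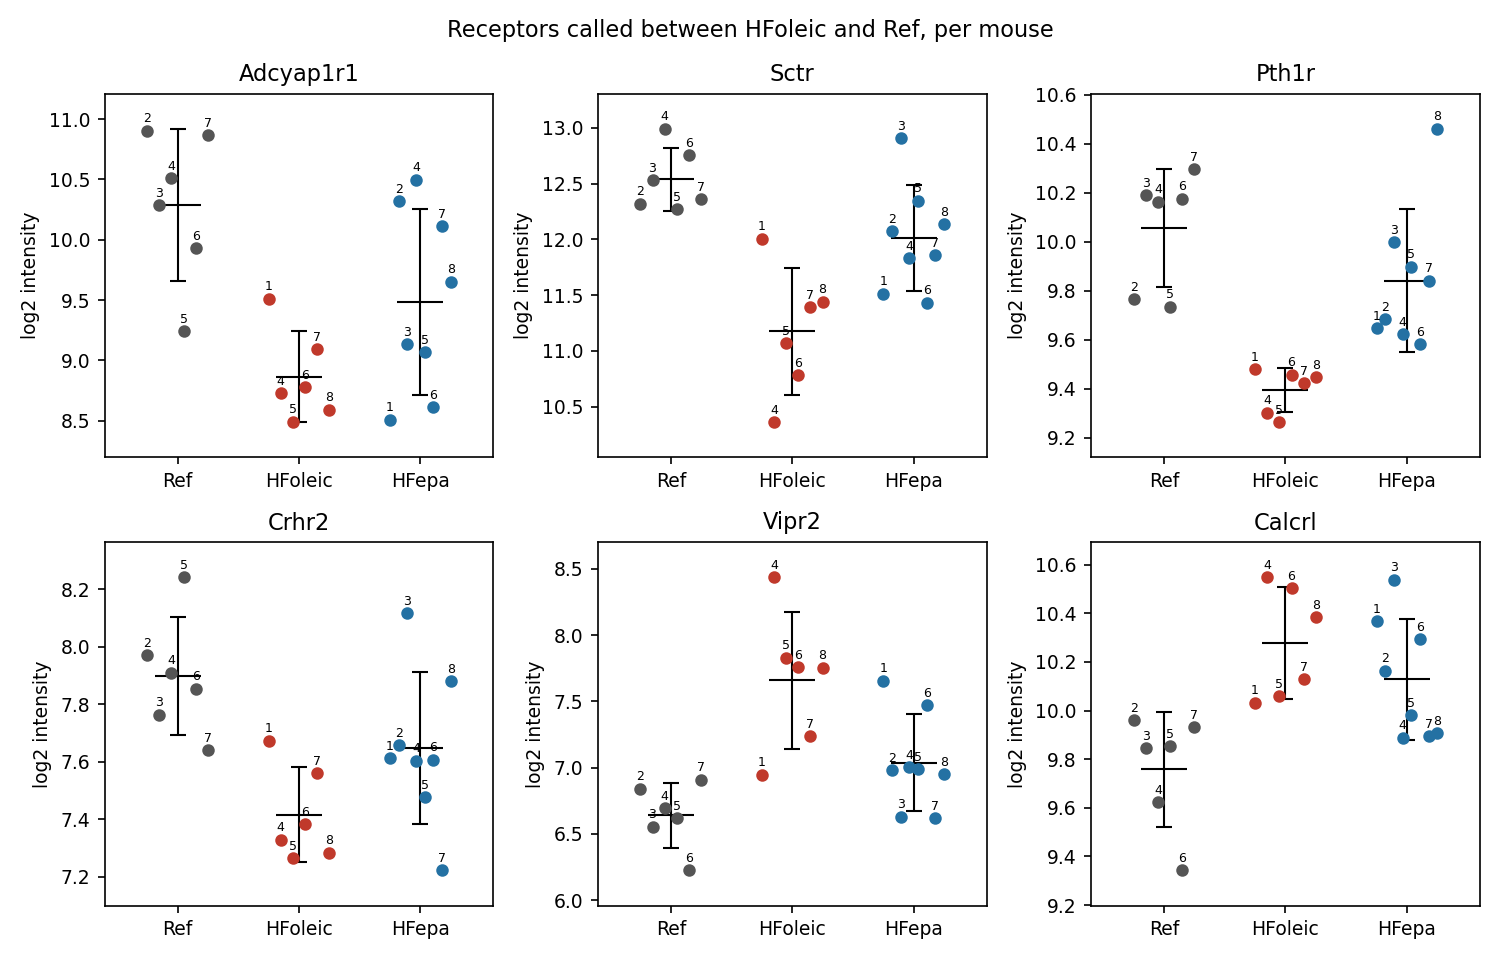
Log2 intensity of the 6 receptors called in HFoleic vs. Ref, 1 point per mouse with its number, for Ref (n = 6), HFoleic (n = 6) and HFepa (n = 8); the bar is the mean and the whiskers are 1 SD. The HFoleic mice lie below the Ref mice for Sctr and Pth1r and above them for Vipr2 and Calcrl, while for Adcyap1r1 and Crhr2 the ranges overlap.

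Of the receptors of the peptides PACAP and VIP, Adcyap1r1 was lower, Vipr2 was higher and Vipr1 was not called. Adcyap1r1 encodes PAC1, the receptor that prefers PACAP, and its probe A_51_P259603 lies at chr6:55450829-55450888 (mm9). It ranged from 9.24 to 10.90 with a median of 10.40 in Ref mice, from 8.49 to 9.51 with a median of 8.75 in HFoleic mice and from 8.51 to 10.50 with a median of 9.39 in HFepa mice. Of the HFoleic mice only mouse 1 reached into the Ref range, where Ref mouse 5 was lowest. In HFoleic vs. Ref, Adcyap1r1 was 2.68-fold lower (log2 fold change -1.42, SE 0.34, adjusted p = 0.00414). A second probe, A_52_P615225, gave -1.61 (SE 0.29, adjusted p = 8e-04), and there the HFoleic and Ref mice did not overlap. PAC1 is best known from neurons, and among 8 tested neuronal and glial markers Th, of catecholamine synthesis, had -0.03 in the same comparison. The neuropeptide gene Npy was well above background in 0 of 6 Ref, 6 of 6 HFoleic and 2 of 8 HFepa mice, and passed the filter on dim signals through the HFoleic mice. The mean of the 8 ranged from 7.51 to 7.81 in Ref mice and from 7.54 to 7.83 in HFoleic mice. The part of these cells in the Adcyap1r1 value was not tested.

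Vipr2 encodes VPAC2, which binds PACAP and VIP alike. Its probe A_51_P342773 (chr12:117384455-117384514, mm9) ranged from 6.22 to 6.91 in Ref mice with a median of 6.66, from 6.95 to 8.44 in HFoleic mice with a median of 7.76 and from 6.62 to 7.66 in HFepa mice with a median of 6.99. Every HFoleic mouse was above every Ref mouse, mouse 1 by the least. In HFoleic vs. Ref, Vipr2 was 2.03-fold higher (log2 fold change 1.02, SE 0.21, adjusted p = 0.00166). The 2 Vipr2 probes printed above start at bases 389 and 999 of the transcript, before base 3105 where the called probe starts, and were dim. A_55_P2033676 was well above background in 0 of 6 Ref, 3 of 6 HFoleic and 4 of 8 HFepa mice, and A_66_P111305 in 2, 5 and 5. Neither was called in HFoleic vs. Ref, with log2 fold changes of 0.19 (95% interval -0.04 to 0.43) and 0.10 (-0.32 to 0.52). The mean over the 3 tested probes gave 0.44 in place of 1.02, still called. A further Vipr2 probe, made for another transcript, was not well above background on any array and was not tested. The macrophage markers, given above, moved with the groups too, and their part in the Vipr2 value was not tested.

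Vipr1 encodes VPAC1, the other shared receptor of VIP and PACAP, and it was not called. Its probe A_55_P2064351 ranged from 7.55 to 8.11 in Ref mice, with a median of 7.78, from 7.76 to 8.22 in HFoleic mice, with 7.87, and from 7.40 to 7.99 in HFepa mice, with 7.91. The groups overlapped almost entirely. The log2 fold change in HFoleic vs. Ref was 0.10 (95% interval -0.16 to 0.36), and the second probe had -0.05 (-0.24 to 0.15).

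Sctr encodes the receptor of secretin, a gut hormone, and was lower without overlap of the groups. At chr1:121960008-121960067 (mm9), its probe ranged from 12.27 to 12.99 in Ref mice with a median of 12.45, from 10.36 to 12.01 in HFoleic mice with a median of 11.23 and from 11.43 to 12.91 in HFepa mice with a median of 11.97. HFoleic mouse 1, at 12.01, was the HFoleic mouse nearest to the Ref range, and the other HFoleic mice were at 11.44 or less. Sctr was 2.57-fold lower in HFoleic vs. Ref (log2 fold change -1.36, SE 0.25, adjusted p = 8.34e-04). Its ligand gene, Sct, was measured and had -0.44 (SE 0.50, adjusted p = 0.545).

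Pth1r encodes the receptor of parathyroid hormone and of the related peptide PTHrP, both of which can drive lipolysis in fat cells. In Ref mice it ranged from 9.73 to 10.30 with a median of 10.17, in HFoleic mice from 9.26 to 9.48 with a median of 9.44, and in HFepa mice from 9.58 to 10.46 with a median of 9.76. The 6 HFoleic mice lay close together and below every other mouse of the study. Pth1r was 1.58-fold lower in HFoleic vs. Ref (log2 fold change -0.66, SE 0.13, adjusted p = 0.00125). Pthlh, the gene of PTHrP, had -0.30 (SE 0.21, adjusted p = 0.283).

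Crhr2 encodes the receptor of the urocortins, relatives of corticotropin-releasing hormone. The called probe A_66_P129218 was designed on an Ensembl transcript, and the files place only 17 of its bases on the genome (chr6:55048621-55048637, mm9). Whether it reads the Crhr2 transcript was not tested. It ranged from 7.64 to 8.24 with a median of 7.88 in Ref mice, from 7.26 to 7.67 with a median of 7.36 in HFoleic mice and from 7.22 to 8.12 with a median of 7.61 in HFepa mice. The HFoleic and Ref ranges overlapped by 1 mouse each, and the log2 fold change was -0.48 (SE 0.12, adjusted p = 0.00627). The probe on the RefSeq transcript, A_51_P399653 (chr6:55040093-55040152, mm9), was well above background on all 20 arrays and had 0.01 (95% interval -0.29 to 0.31, adjusted p = 0.963). For the mean of both probes the call was lost, with a log2 fold change of -0.23 (adjusted p = 0.0799).

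Calcrl encodes the receptor that, with a partner protein of the RAMP family, responds to adrenomedullin or to calcitonin gene-related peptide, and it is known from endothelium. Its probe (chr2:84171069-84171128, mm9) ranged from 9.34 to 9.96 with a median of 9.85 in Ref mice, from 10.03 to 10.55 with a median of 10.26 in HFoleic mice and from 9.89 to 10.54 with a median of 10.07 in HFepa mice. All HFoleic mice were above all Ref mice, with HFoleic mice 1 and 5 nearest to them. Calcrl was 1.43-fold higher in HFoleic vs. Ref (log2 fold change 0.52, SE 0.13, adjusted p = 0.00633). None of the 9 blood endothelial markers was called in this comparison by limma, and 0 of 9 had an unadjusted p below 0.05. Their mean level ranged from 11.87 to 12.27 in Ref mice and from 11.77 to 12.16 in HFoleic mice. Of 5 lymphatic endothelial markers 0 were called. The mean of these 5 ranged from 7.47 to 8.51 in Ref mice and from 6.65 to 7.92 in HFoleic mice. The part of endothelial cells in the Calcrl value was not tested. The partners Ramp1, Ramp2 and Ramp3 had log2 fold changes of 0.70, -0.05 and -0.78, and none was called (adjusted p = 0.16, 0.733 and 0.421). Ramp3 was at 10.19 in Ref mouse 3, 10.76 in Ref mouse 6 and 10.17 in HFoleic mouse 5, which are arrays with Prm1 signal, and between 6.88 and 7.84 in the other Ref and HFoleic mice, so its value rests on these arrays. Among the HFepa mice, Ramp3 was highest in mouse 4 (10.44), which had Prm1 signal, and next in mouse 7 (9.23), where Prm1 was at 5.55. The part of testis tissue in the Ramp3 value was not tested. The adrenomedullin gene Adm had -0.04 (adjusted p = 0.933). Calca, which encodes calcitonin and calcitonin gene-related peptide, was lower without overlap of the groups (-1.03, SE 0.25, adjusted p = 0.00496).

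The receptors of glucagon and the incretins were not called in any comparison. Gcgr, the glucagon receptor, ranged from 10.14 to 10.74 with a median of 10.44 in Ref mice, from 9.31 to 10.57 with a median of 10.02 in HFoleic mice and from 9.91 to 11.19 with a median of 10.51 in HFepa mice. HFoleic mouse 4 was lowest of all mice, and HFoleic mice 1, 6 and 8 lay inside the Ref range. In HFoleic vs. Ref, Gcgr had -0.47 (SE 0.20, limma's unadjusted p = 0.0334, adjusted p = 0.0892). With the slide as a block in the model it was called (-0.54, adjusted p = 0.0322), and so it was without HFoleic mouse 6 (-0.58, adjusted p = 0.0401). Within the slides, the difference of the means was -0.09 on slide 1, -1.10 on slide 2, which holds 1 HFoleic array, and -0.73 on slide 3. Gcgr is best known from liver, and the mean of 6 liver markers ranged from 7.27 to 10.29 in Ref mice, from 7.35 to 11.53 in HFoleic mice and from 7.94 to 10.48 in HFepa mice, with 0 of 6 called by limma in HFoleic vs. Ref and 0 with an unadjusted p below 0.05. HFoleic mouse 6, the HFoleic mouse highest for Gcgr, had the 11.53, and HFepa mouse 5, highest of all for Gcgr, the 10.48, while HFepa mouse 3, next for Gcgr at 10.78, had the 7.94. The part of liver transcripts in the Gcgr value was not tested.

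Gipr, the receptor of the incretin GIP, ranged from 9.26 to 9.73 in Ref mice, with a median of 9.59, from 9.21 to 10.04 in HFoleic mice, with 9.67, and from 9.23 to 10.24 in HFepa mice, with 9.66. The Ref range lay inside that of both HF groups. The log2 fold change in HFoleic vs. Ref was 0.13 (95% interval -0.21 to 0.48). Glp1r, the receptor of GLP-1, was close to the background: it was well above it in 2 of 6 Ref, 2 of 6 HFoleic and 4 of 8 HFepa mice. Its values of 5.04 to 5.70 over all mice gave 0.11 on the log2 scale in HFoleic vs. Ref (95% interval -0.083 to 0.31), with the sign reversed after median centring (-0.057). At this signal a difference in Glp1r was not detectable, which does not show that it is absent.

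**Figure D2:**
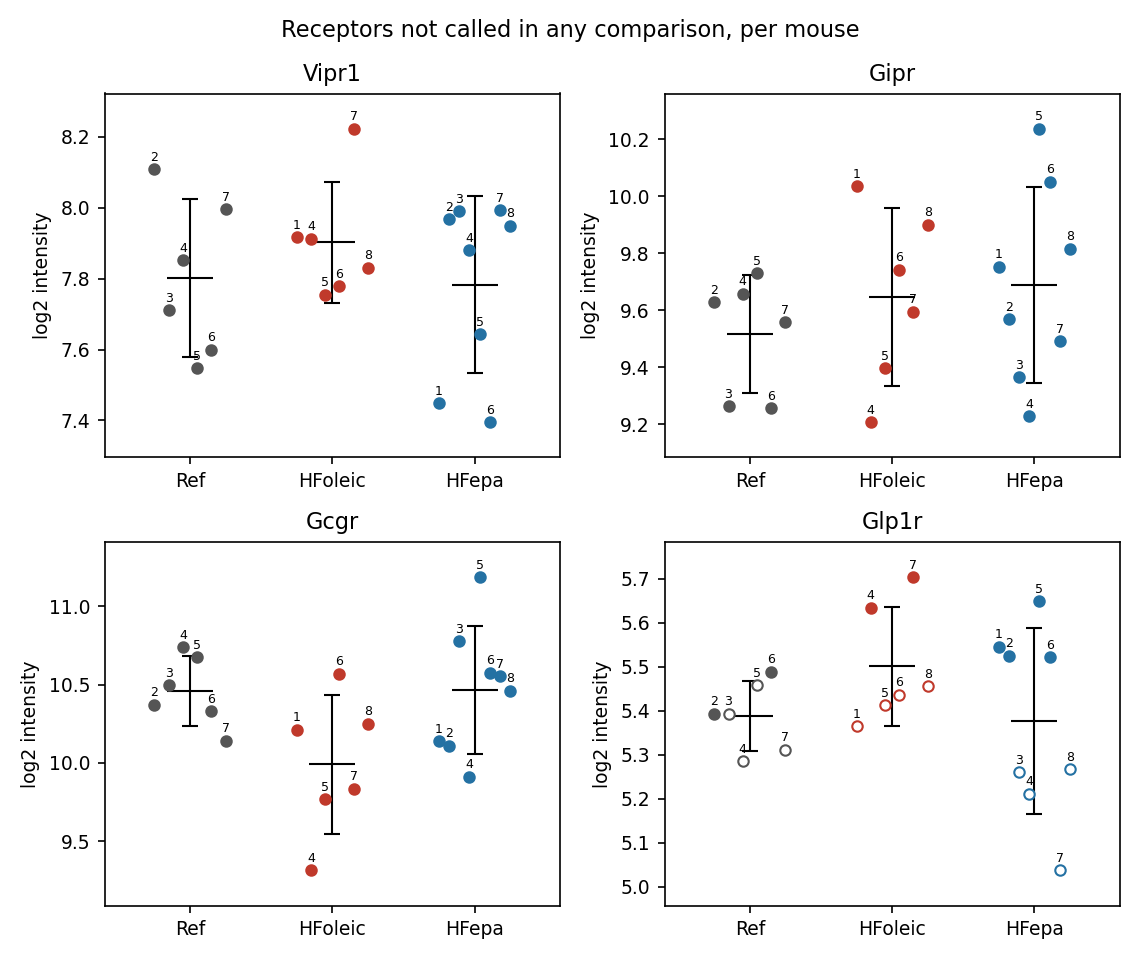
Log2 intensity of the 4 receptors not called in any comparison, 1 point per mouse with its number, for Ref (n = 6), HFoleic (n = 6) and HFepa (n = 8), with the mean and 1 SD; open circles are values not well above background. The groups overlap for each of the 4 genes, and 12 of the 20 Glp1r values are open circles.

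In HFepa vs. Ref, limma called 0 of the 10 receptors, beside 2.46% of all genes (1.03% higher and 1.42% lower), and 4 had an unadjusted p below 0.05 (Adcyap1r1, Sctr, Calcrl and Crhr2), beside 21.6% of all genes. No receptor was free of overlap between the groups, beside 1.04% of all genes. The log2 fold change was -0.80 (SE 0.32, adjusted p = 0.161) for Adcyap1r1, with -0.95 (adjusted p = 0.0655) for its second probe. Sctr had -0.52 (SE 0.23, adjusted p = 0.206) and Calcrl 0.37 (SE 0.12, adjusted p = 0.104). For Vipr2 it was 0.40 (95% interval -0.02 to 0.81, adjusted p = 0.258), for Pth1r -0.21 (-0.47 to 0.04, adjusted p = 0.329) and for Crhr2 -0.25 (-0.49 to -0.01, adjusted p = 0.225). Gcgr had 0.01 (-0.40 to 0.41) and Vipr1 -0.02 (-0.26 to 0.22). This comparison uses the same 6 Ref arrays as HFoleic vs. Ref, so the values of both are not independent.

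**Figure D3:**
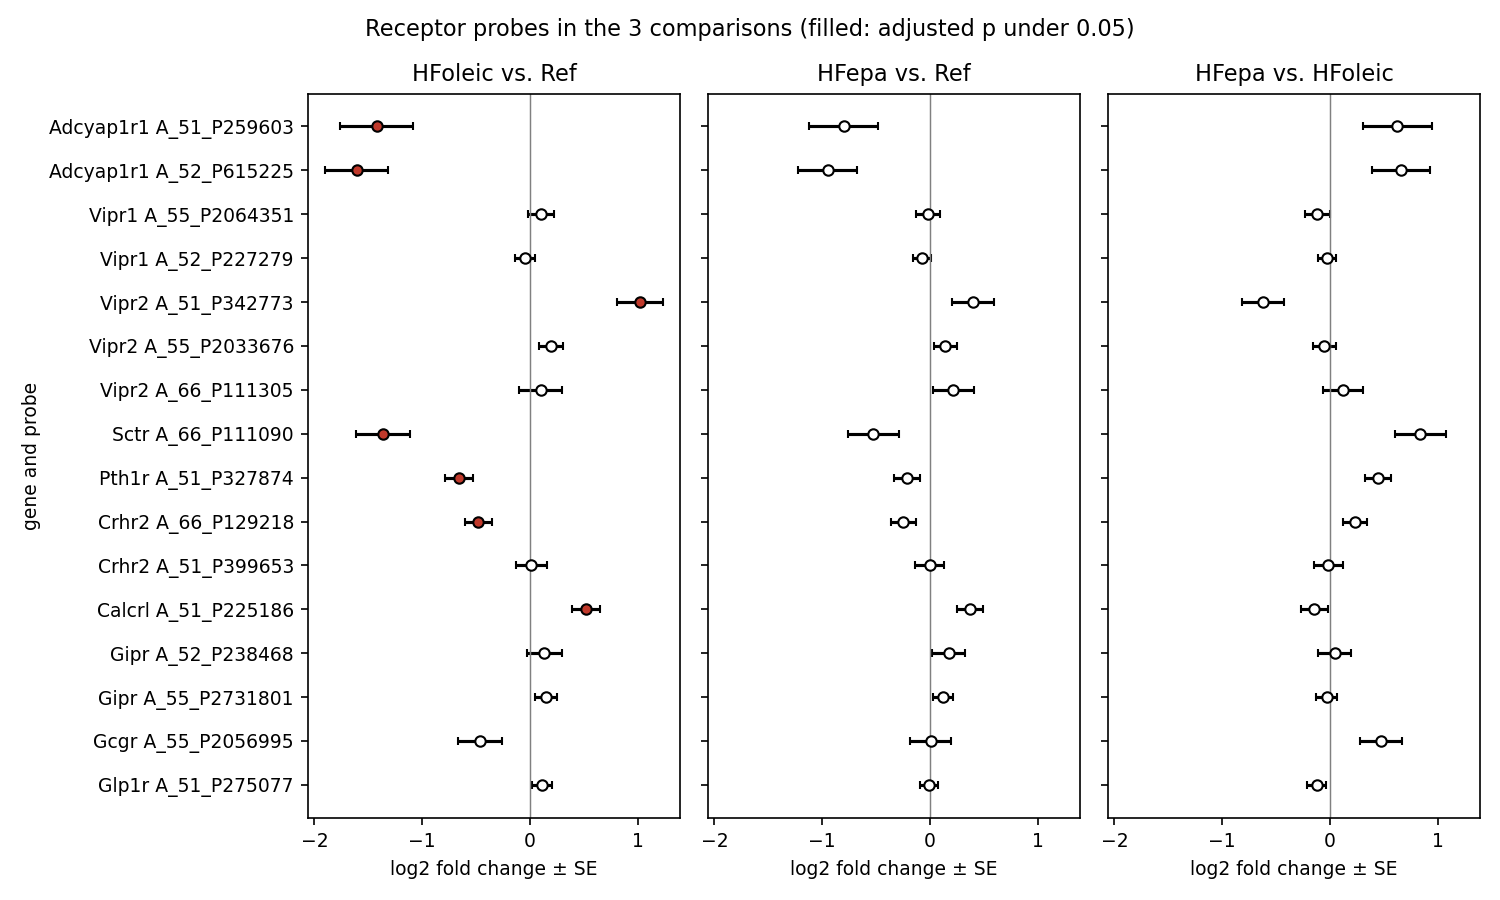
Log2 fold change of the 16 tested probes of the 10 receptors in the 3 comparisons, with the standard error of the model as whiskers; filled points have an adjusted p below 0.05. Filled points appear in HFoleic vs. Ref alone, where both Adcyap1r1 probes are filled but 1 of 3 Vipr2 and 1 of 2 Crhr2 probes.

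The direct comparison, HFepa vs. HFoleic, tests whether the receptors differed between the lineages under the high-fat diet. Limma called 0 of the 10 receptors, beside 0% of all genes, and 4 had an unadjusted p below 0.05 (Pth1r, Sctr, Vipr2 and Gcgr), beside 20.8% of all genes. Only Pth1r had no overlap between these groups, beside 0.355% of all genes, with a log2 fold change of 0.45 (95% interval 0.19 to 0.70, adjusted p = 0.118). Sctr had 0.84 (0.35 to 1.33, adjusted p = 0.119), Vipr2 -0.62 (-1.04 to -0.21, adjusted p = 0.13) and Gcgr 0.47 (0.07 to 0.88, adjusted p = 0.176). Adcyap1r1 had 0.62 (-0.05 to 1.30, adjusted p = 0.276) and Calcrl -0.15 (-0.41 to 0.12, adjusted p = 0.534).

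These values depended on single mice and on the model. Pth1r, Sctr and Vipr2 were called with the slide as a block (0.49, 0.94 and -0.69, adjusted p = 0.0383, 0.035 and 0.0467), with array weights (0.42, 0.85 and -0.73, adjusted p = 0.0246, 0.0248 and 0.0235) and without HFepa mouse 1 (0.47, 0.91 and -0.71, adjusted p = 0.0333, 0.0321 and 0.0341). Without HFoleic mouse 1, Sctr and Vipr2 were called (1.00 and -0.77, adjusted p = 0.0329 and 0.0371). Calls among the pathway genes listed below rose in these fits too, from 0 of 79 to 5 with the slide block and 13 with array weights. Without HFepa mouse 1 they numbered 9, and without HFoleic mouse 1 they numbered 6. The share of all genes called in these fits was not counted, so the calls are no result particular to the receptors. Within slides 1, 2 and 3, the difference of the means was 0.54, 0.33 and 0.57 for Pth1r, 0.59, 1.42 and 1.15 for Sctr, and -0.29, -1.29 and -0.91 for Vipr2.

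The 8 HFepa mice were not alike. HFepa mice 1 and 6, with the highest macrophage marker levels of the group, had the 2 lowest Adcyap1r1 values (8.51 and 8.61), the 2 lowest Sctr values (11.51 and 11.43) and the 2 highest Vipr2 values (7.66 and 7.47) of the HFepa mice. The other 6 HFepa mice lay between 9.07 and 10.50 for Adcyap1r1, between 11.83 and 12.91 for Sctr and from 6.62 upwards, below mice 1 and 6, for Vipr2. Pth1r and Calcrl followed this order only in part in the HFepa mice, and Crhr2 did not follow it. Pth1r was at 9.65 and 9.58 in mice 1 and 6 and at 9.62 in mouse 4, and Crhr2 was lowest in mouse 7 (7.22). Calcrl was highest in mouse 3 (10.54), where the macrophage markers had a mean of 11.51, and next in mice 1 (10.37) and 6 (10.29). HFoleic mouse 1, which had the lowest macrophage level of its group (12.53), also had the highest Adcyap1r1, Sctr and Pth1r and the lowest Vipr2 and Calcrl among the HFoleic mice. Whether macrophages account for these values was not tested.

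**Figure D4:**
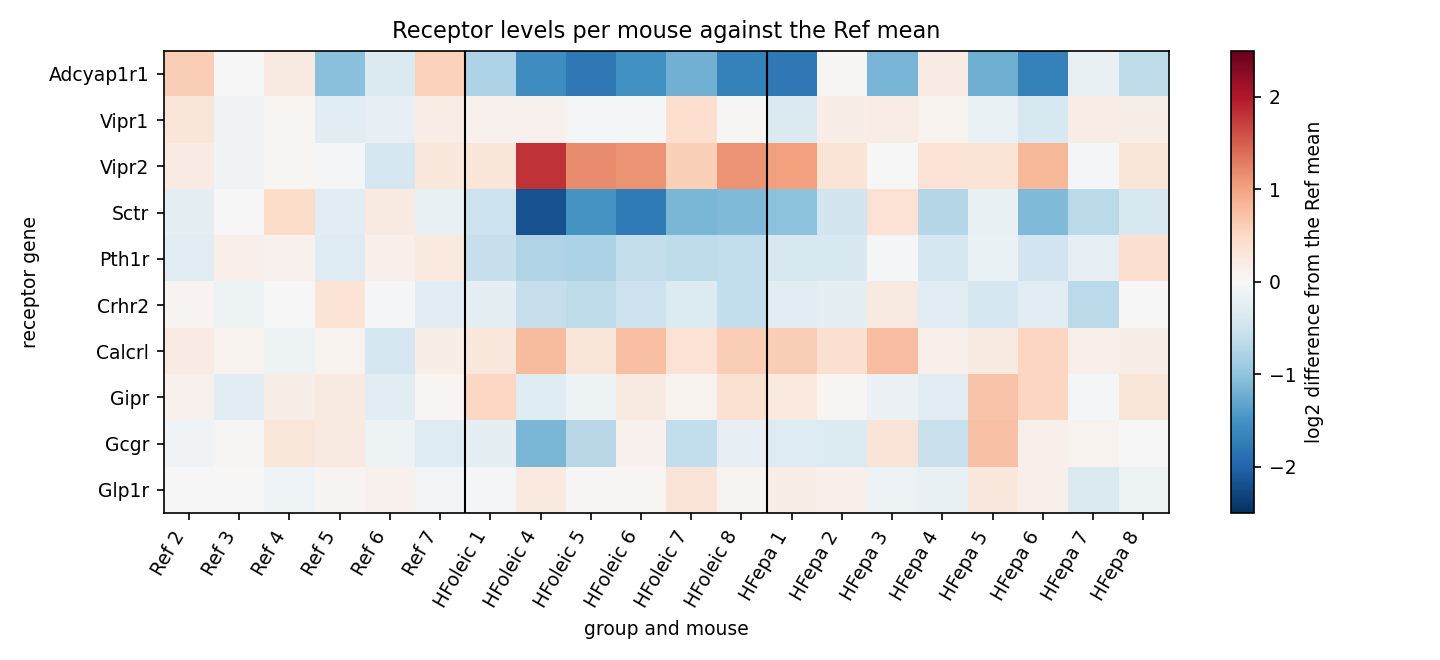
Log2 intensity of each receptor in each mouse minus the mean of the 6 Ref mice, with genes in rows and mice in columns, blue for lower and red for higher values; lines part the Ref, HFoleic and HFepa mice. Adcyap1r1 and Sctr are blue and Vipr2 red in the HFoleic mice, palest in mouse 1, and in HFepa mice 1 and 6. Adcyap1r1 is also blue in HFepa mice 3 (-1.16) and 5 (-1.22).

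The genes around the receptors were described through 7 lists: other receptors of the class, peptide ligands, receptor partners and desensitisation, G proteins and adenylyl cyclases, protein kinase A and Epac, phosphodiesterases, and CREB with cyclic AMP-responsive genes. Of 93 listed genes 79 were tested, and in HFoleic vs. Ref 27 of them were called, 10 higher and 17 lower, which is 34.2% beside 31.8% of all genes. The share of 34.2% is near that of all genes in the same fit and is no result about the pathway. Without the 5 arrays with testis or epididymis signal, and so with fewer mice, 14 of 78 were called. The share of all genes called in that smaller fit was not counted, so the 14 have no background to stand beside.

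Of the 4 other tested receptors of the class, 1 was called: Ghrhr, the receptor of growth hormone-releasing hormone, with -0.31 (SE 0.10, adjusted p = 0.0219). Its ligand gene Ghrh was higher, from a mean of 6.96 in Ref mice to 8.36 in HFoleic mice without overlap, a difference of 1.39 (SE 0.23, adjusted p = 4.76e-04), and it was also called in HFepa vs. Ref (1.13, SE 0.21, adjusted p = 0.0158). Ghrh and Calca were the 2 ligand genes called. Of the 17 ligand genes 6 were tested, and those of PACAP (Adcyap1), VIP, GIP, parathyroid hormone and the urocortins were among the 11 that did not pass the filter on dim signals.

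Among 14 partners and desensitisation genes, 4 were called, all higher, which is 28.6% beside 31.8% of all genes called and 15.2% called higher. They were the receptor kinases Adrbk2 (0.50), Grk5 (0.34) and Grk6 (0.22), which mark active receptors for uncoupling, and beta-arrestin 2 (Arrb2, 0.38), which binds them. Of 15 G protein and cyclase genes, 2 were higher and 2 lower, which is 26.7% called. Adcy7, a cyclase known from immune cells, rose by 1.83 (SE 0.41, adjusted p = 0.00259), without overlap of the groups, and Gng2, a G protein subunit, by 0.67, while Adcy4 had -0.84 and Adcy10 -0.45. Gng2 was called in HFepa vs. Ref as well (0.55, adjusted p = 0.0312).

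Among 12 genes of protein kinase A and Epac, 2 were higher and 4 lower, which is 50% called beside 31.8% of all genes. Pkia, an inhibitor of protein kinase A, rose by 1.15 (SE 0.20, adjusted p = 6.7e-04), again without overlap, and the regulatory subunit gene Prkar2a by 0.24. The Epac genes Rapgef3 and Rapgef4 had -0.54 and -0.59, Prkar1b -0.36 and the anchor gene Akap12 -0.38. Of 15 phosphodiesterase genes, 1 was higher (Pde7b, 0.54) and 4 lower, which is 33.3% called. Pde3b, the enzyme through which insulin lowers cyclic AMP in fat cells, had -0.86 (SE 0.20, adjusted p = 0.00336), Pde4d -0.86, Pde1a -0.71 and Pde1c -0.45.

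Of 13 genes of CREB and its responses, 5 were called, all lower, and the median of the list was -0.15. That is 38.5%, beside 31.8% of all genes called and 16.7% called lower, and the list as a whole was not tested. The 5 are Nr4a1 (-1.11), Nr4a2 (-0.49), Sik1 (-0.74) and Ppargc1a (-0.71), which cyclic AMP is known to induce, and the CREB coactivator Crtc2 (-0.38). Fos, another gene known to respond to cyclic AMP, had 0.81 (SE 0.36, adjusted p = 0.0964) and was not called. Nr4a3 and Crem, of the same list, were not called either. Nr4a3 had a mean of 6.78 in Ref and 6.73 in HFoleic mice, and Crem 9.55 and 9.59. In HFepa vs. Ref none of these 13 genes was called by limma and 2 had an unadjusted p below 0.05, Crtc2 (-0.20) and Ppargc1a (-0.48). Nr4a1 had -0.64 (adjusted p = 0.309) and Sik1 -0.06 (adjusted p = 0.861) there.

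**Figure D5:**
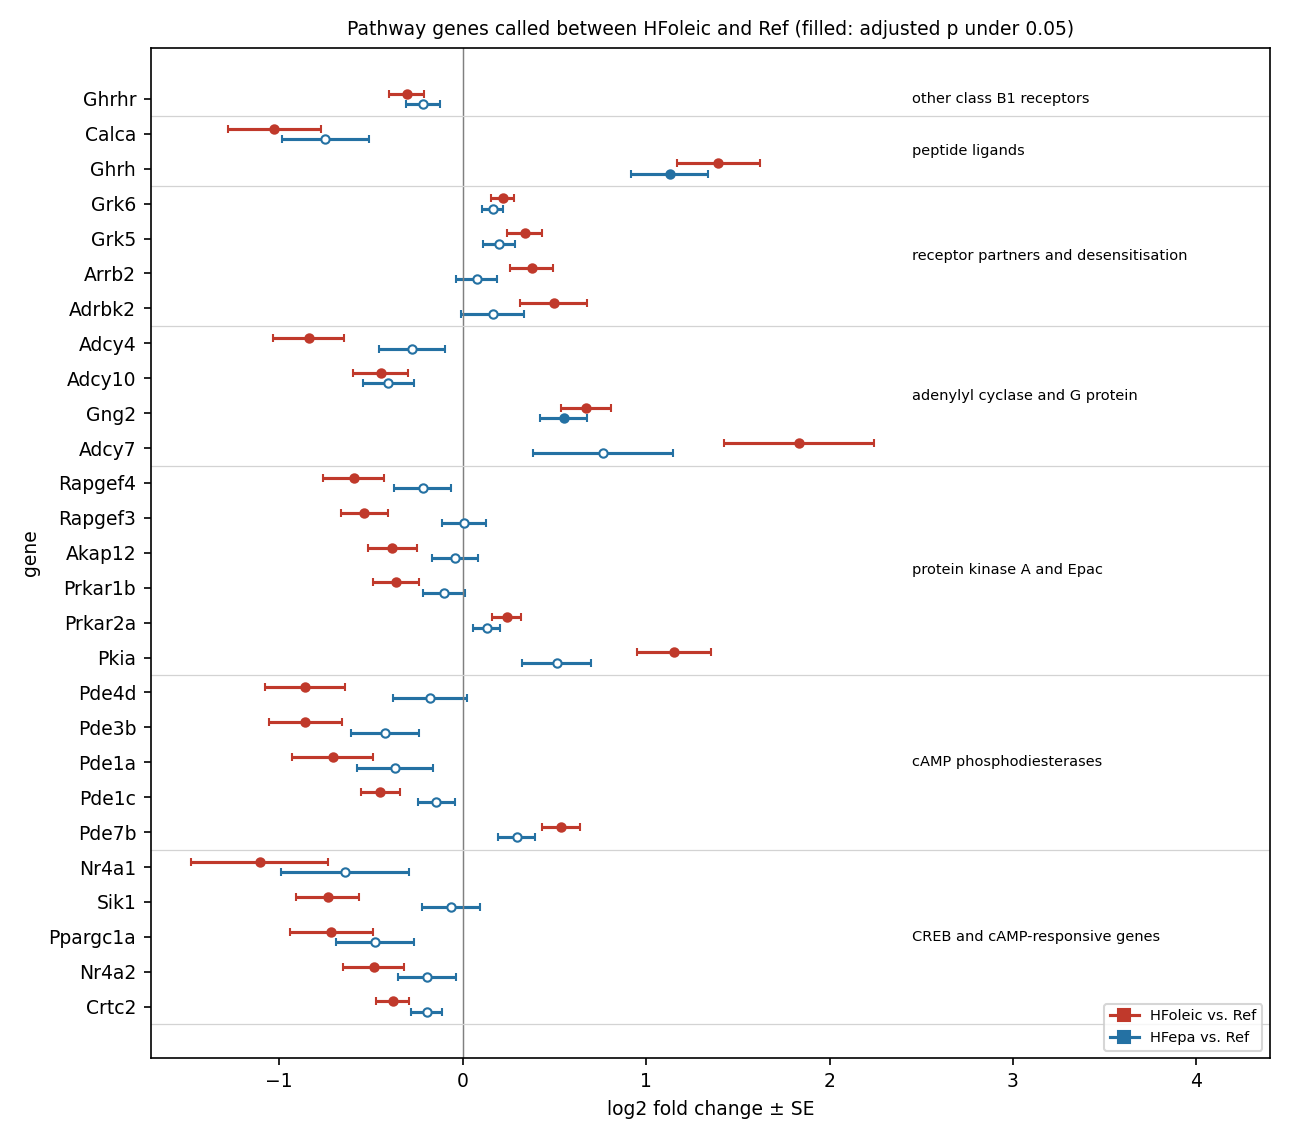
Log2 fold change with its standard error of the 27 pathway genes called in HFoleic vs. Ref (red), grouped by list, with the value of the same genes in HFepa vs. Ref (blue); filled points have an adjusted p below 0.05. Only called genes are drawn. The 5 called of 13 CREB genes lie left of 0 in red and the 4 called of 14 partner and desensitisation genes right of it. In blue only Ghrh and Gng2 are filled.

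For comparison among the catecholamine receptors of fat, Adrb3, the beta receptor typical of fat cells, was lower in HFoleic vs. Ref, with -0.89 (SE 0.27, adjusted p = 0.019), and so was Adrb1, with -0.84 (adjusted p = 0.0118). Adra2a, the receptor that lowers cyclic AMP, had -0.10 (adjusted p = 0.711). Of the 7 adipocyte markers 3 were called, the lipase genes Lipe (-1.19) and Pnpla2 (-0.42) lower and Lep (1.13) higher, and the mean of the 7 ranged from 15.62 to 15.86 in Ref mice and from 15.53 to 15.80 in HFoleic mice. In HFepa vs. Ref, Adrb3 had -0.45 (adjusted p = 0.335) and Adrb1 -0.35 (adjusted p = 0.395), and neither was called.

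Over the 20 mice, the genes whose levels followed each called receptor most closely were found by correlation across all 25602 comparable genes, as a description, since the mice share groups and slides. For Vipr2 they were Cenpn (r = 0.97), Fam122b (0.96) and Asf1b (0.96), of which Cenpn encodes a centromere protein and Asf1b a histone chaperone. After the group means were taken out, the r of Vipr2 with them was still 0.94, 0.93 and 0.92. For Sctr they were Mira, Ggnbp2os and Ypel3 (0.95 each), for Adcyap1r1 Kazald1 (0.92), Hpgd (0.91) and Gm20878 (0.88), for Pth1r Rdh9 (0.91), 9530062K07Rik (0.90) and Card10 (0.89), and for Calcrl Itga5 (0.89), Entpd1 (0.88) and Fkbp15 (0.88). Hpgd encodes the enzyme that inactivates prostaglandins, and Itga5 an integrin subunit. For Crhr2 the nearest were transcripts without a gene symbol (0.89 to 0.91).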

How the data were processed

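VAT of 20 mice was measured on Agilent 1-colour arrays. The authors read each spot's intensity with Feature Extraction 10.10.1.1 (its version per the file headers), with no normalization, and deposited a log2 table made from it by filtering and quantile normalization. Here, control spots were left out and spots marked as non-uniform or outliers were missing on that array. Probes well above background on at least 6 arrays were kept. Their median intensities were log2-transformed without background correction, quantile normalized, and averaged over spots of a probe. Groups were taken from the sample titles. One mean per group was fitted to all 20 arrays with limma 3.58.1 in R 4.3.3 (lmFit, contrasts, eBayes), with Benjamini–Hochberg adjustment over all 39390 probes; intervals are 95% intervals of this model with 17 residual degrees of freedom before moderation. The number of mice limits the precision. A gene was represented by its brightest tested probe, and coordinates of probes are those of the files (mm9). All 10 receptors were named, with up to 5 called genes per list by smallest p, any called ligand or RAMP, markers beside a receptor's result and the 3 most correlated genes; Akap12 and the uncalled pathway genes were named after their values were seen, and some listed genes are not reported here. The members and lists were chosen with earlier results of these data known. In simulated data with independent normal noise, 92.5% of 200 changes of log2 1 in HFoleic vs. Ref were recovered among 39390 probes, and 53% of changes of 0.5. In the real comparison 12147 probes were called, and the adjusted threshold depends on that number. The simulated shares therefore do not give the sensitivity of the real comparison. The alternatives were other signals, background corrections, scalings and filters, the authors' table, slide or replicate blocks, array weights, other variance estimates, other probe summaries, and each array left out. Leaving out the 5 arrays with testis or epididymis signal was added after seeing the data. Figures were drawn with matplotlib 3.10.9.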

Additional observations from a re-analysis of the deposited data

Results flagged for a closer look

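Of 48 groups of values examined (16 tested receptor probes in 3 groups), 4 held a mouse far from the others of its group, where chance alone gives about 1 in 20, or 2.4. The clearest was HFepa mouse 5 on the dim Vipr2 probe A_66_P111305, at 7.14, with the next HFepa mouse at 5.67 and the lowest at 5.39. On the same probe HFoleic mouse 7 was low, at the lowest value of the group, 5.50, with the other HFoleic mice between 5.62 and 5.69. HFepa mouse 8 was high for Pth1r, at 10.46, with the other HFepa mice from 9.58 upwards, and lay just past the limit. HFoleic mouse 7 was high for Vipr1 (A_55_P2064351), at 8.22, with the next at 7.92. HFepa mouse 5 did not stand apart on the other Vipr2 probes.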

How the results depend on the processing

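The 6 receptors called in HFoleic vs. Ref kept their direction in all alternatives and their call in all but 1, the mean of both Crhr2 probes (-0.23, adjusted p = 0.0799); their count was 5 to 7 under these and between 6 and 7 with single arrays left out. The share of all genes called was not counted for the alternatives. In HFepa vs. Ref the count of receptors was 0 throughout. In HFepa vs. HFoleic, 3 receptors were called under a slide block and 3 under array weights, and between 0 and 3 with single arrays left out. Pathway genes called in HFoleic vs. Ref numbered 18 to 32 with single arrays left out and 14 without the 5 arrays with testis or epididymis signal. In HFepa vs. Ref they numbered 1 with only the groups compared, 0 without those 5 arrays, and 1 to 6 with single arrays left out, the highest without HFepa mouse 3. In HFepa vs. HFoleic they numbered 5 under a slide block, 13 under array weights, and 0 to 9 with single arrays left out, 9 without HFepa mouse 1 and 6 without HFoleic mouse 1. Signs turned only for uncalled values: Glp1r in HFoleic vs. Ref after median centring (-0.057) and in HFepa vs. Ref without the dim filter (0.024) and without the 5 arrays (0.014), Gcgr in HFepa vs. Ref with array weights (-0.02), and, with single arrays left out, Vipr1 (-0.070 to 0.041), Gcgr (-0.098 to 0.084) and Glp1r (-0.051 to 0.034) in HFepa vs. Ref and Gipr (-0.045 to 0.12) in HFepa vs. HFoleic. The replicate block, with an estimated correlation of -0.08, left 6, 0 and 0 receptors and 27, 2 and 0 pathway genes called, the same counts as without it. The numbers do not pair the mice: over 16 pairs with the same number, the correlation of deviations ran from -0.58 to 0.56, above 0.1 in 5. The causes of these changes were not tested, other than the smaller number of arrays where arrays were left out.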

Other observations

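Crhr2, Ghrhr and Adcyap1r1 are neighbours on chromosome 6. Among RefSeq genes (GRCm38.p6), 9 lie from Crhr2 to Adcyap1r1, of which 6 were tested under the same name. Of these, 4 were called lower in HFoleic vs. Ref, beside 16.7% of all genes called lower. The stretch was looked at after the values were seen, and both its ends are called receptors. The calls of Crhr2, Adcyap1r1 and Ghrhr were thus known beforehand, and the count is no result about the stretch. Of the other tested genes, Inmt, Aqp1 and 6430584L05Rik, Inmt alone was called. Inmt, the gene of a methyltransferase, had -1.53 (adjusted p = 0.0021), Adcyap1r1 -1.42 (adjusted p = 0.00414), Crhr2 -0.48 (adjusted p = 0.00627, on 1 of its 2 probes) and Ghrhr -0.31 (adjusted p = 0.0219). Between them lie Aqp1, a water channel gene, with 0.21 (adjusted p = 0.177), and 6430584L05Rik with 0.02 (adjusted p = 0.912). None of the 6 was called in HFepa vs. Ref.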
